A study of Mus musculus with 8 samples.

Results

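The least methylated CpG-poor windows of the mouse autosomes were examined in quiescent muscle stem cells, the resting cells from which muscle fibres are repaired. Chromosomes 1 to 19 were divided into 24026 windows of 100 kb. The 12201 windows that hold 300 to 1200 listed CpG cytosines, 2 for each CpG and called positions here, formed the CpG-poor range. The 500 of them with the lowest mean methylation in young cells are the members, and the other 11701 windows of the range are what they were set against. The members were thus chosen by the young level, which is given as a description and supports nothing. The study compared cells of 4 old males (22 months) with cells of 4 young males (4 months) of the strain C57BL/6, 1 animal per library, sorted from limb muscle as CD45-, CD31-, Sca1- and VCAM+; the labels name no other treatment or allele. Methylation was read by whole-genome bisulfite sequencing, in which unmethylated cytosines are read as thymines, at 115000000 to 200000000 reads per library according to the labels. The deposited table gives 1 smoothed level per age for each position and nothing per animal. No level therefore has a replicate error, the depth per position is unknown, and no difference between ages could be tested over animals. Each SD below is a spread over windows or chromosomes, which share the same animals.

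Most CpGs of a mammalian genome are methylated, and CpG is rare because methylated cytosines are prone to mutate. CpG islands, short CpG-rich stretches at the starts of many genes, stay unmethylated in most cells, including cells in which the gene is not used. In some cell types long CpG-poor, late-replicating blocks also carry intermediate methylation and are called partially methylated domains.

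The members averaged 51.5% methylation in old cells (SD 5.14 over 500 windows) and 51.0% in young cells (SD 5.06). The other windows of the range averaged 69.7% in old cells (SD 5.06 over 11701 windows) and 69.0% in young cells (SD 5.07). The low mean did not describe the window as a whole: it came mostly from short CpG-dense stretches, many of them at gene starts. Outside such stretches members averaged close to the other windows, though somewhat lower. Over all positions 5 to 20 kb from a gene end, members stood at 64.9% in old cells, against 71.6% in the other windows. For most members the data therefore go against the word domain, and they are called windows here.

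The sequences of 5 annotated gene starts show what the members hold. They run over 250 bases before and 50 after the start, come from RefSeq on build GRCm38.p6, read 5′ to 3′ along the gene, and have each CpG in capitals. Lrp11, which encodes a membrane protein of the LDL receptor family, starts in the lowest window of all (chr10:7589567-7589866, plus strand), and Slitrk5, a neuronal adhesion protein, in the fifth lowest (chr14:111675777-111676076, plus strand). Gabra2 encodes a subunit of the GABA-A receptor, the main inhibitory receptor of the brain (chr5:71095800-71096099, minus strand). Olfr94, an odorant receptor gene (chr17:37197917-37198216, minus strand), and Vmn2r100, a pheromone receptor gene of the vomeronasal organ (chr17:19504561-19504860, plus strand), stand for the minority with few CpGs at the start.
Lrp11: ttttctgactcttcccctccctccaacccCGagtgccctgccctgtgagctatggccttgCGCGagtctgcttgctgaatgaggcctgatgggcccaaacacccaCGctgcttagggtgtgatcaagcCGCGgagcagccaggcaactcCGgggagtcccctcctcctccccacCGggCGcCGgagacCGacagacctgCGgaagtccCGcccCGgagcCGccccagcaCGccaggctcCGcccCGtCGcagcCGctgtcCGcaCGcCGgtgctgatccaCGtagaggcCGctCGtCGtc
Slitrk5: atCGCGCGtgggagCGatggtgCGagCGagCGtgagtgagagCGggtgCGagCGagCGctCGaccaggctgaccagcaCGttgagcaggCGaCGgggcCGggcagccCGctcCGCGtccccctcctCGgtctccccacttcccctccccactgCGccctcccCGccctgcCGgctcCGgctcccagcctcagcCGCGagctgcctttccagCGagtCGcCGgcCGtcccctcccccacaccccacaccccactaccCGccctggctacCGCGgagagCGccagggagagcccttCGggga
Gabra2: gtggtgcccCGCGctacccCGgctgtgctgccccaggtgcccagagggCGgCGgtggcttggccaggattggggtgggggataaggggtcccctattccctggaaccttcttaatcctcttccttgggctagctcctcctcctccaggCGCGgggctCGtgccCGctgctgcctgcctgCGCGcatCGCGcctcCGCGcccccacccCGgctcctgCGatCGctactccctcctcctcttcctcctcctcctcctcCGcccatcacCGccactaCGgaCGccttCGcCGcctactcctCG
Olfr94: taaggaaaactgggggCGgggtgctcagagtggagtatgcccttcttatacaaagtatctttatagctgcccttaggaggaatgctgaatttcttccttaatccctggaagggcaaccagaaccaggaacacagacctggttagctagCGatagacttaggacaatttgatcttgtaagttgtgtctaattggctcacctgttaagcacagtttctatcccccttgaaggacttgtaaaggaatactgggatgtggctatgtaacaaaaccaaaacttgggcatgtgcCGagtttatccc
Vmn2r100: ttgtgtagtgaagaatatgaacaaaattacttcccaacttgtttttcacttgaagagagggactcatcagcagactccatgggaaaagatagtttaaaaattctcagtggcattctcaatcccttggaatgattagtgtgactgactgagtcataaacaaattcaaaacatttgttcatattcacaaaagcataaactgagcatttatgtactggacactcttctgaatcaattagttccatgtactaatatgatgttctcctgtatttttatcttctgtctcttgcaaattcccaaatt

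The first 3 of these sequences hold 27, 35 and 25 CpGs in 300 bases. Within 1000 bp of the start Lrp11 stood at 3.90% in old cells and 3.69% in young cells over 292 positions. Slitrk5 stood at 3.30% in old cells and 3.45% in young cells over 260 positions. Gabra2 stood at 4.03% in old cells and 4.13% in young cells over 145 positions. All 3 were thus nearly free of methylation at both ages. The Olfr94 start holds only 3 CpGs, but 170 positions lie within 1000 bp of it, at 9.72% in old cells and 9.86% in young cells. The Vmn2r100 start holds no CpG, and 2 positions within 1000 bp are too few to describe it.

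Where the low positions lay was measured with tiles of 1 kb, called CpG-dense when they held 20 or more positions. Members held 40.4% of their positions in such tiles, against 28.6% in the other windows. Outside the CpG-dense tiles the members averaged 66.3% in old cells and 65.6% in young cells. The other windows averaged 68.0% in old cells and 67.3% in young cells there. Most of the gap between the groups was thus gone once the CpG-dense tiles were left out. Outside CpG-dense tiles, 18 of the 500 members (3.6%) still stood in old cells below 56.96%, the highest young level of any member. Of the other windows 56 (0.479%) did so. Of the 500 windows lowest in old cells outside CpG-dense tiles, 67 (13.4%) were members, where members made up 4.10% of the range. Such low levels were thus few in members, but more frequent there than in the other windows.

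**Figure D1:**
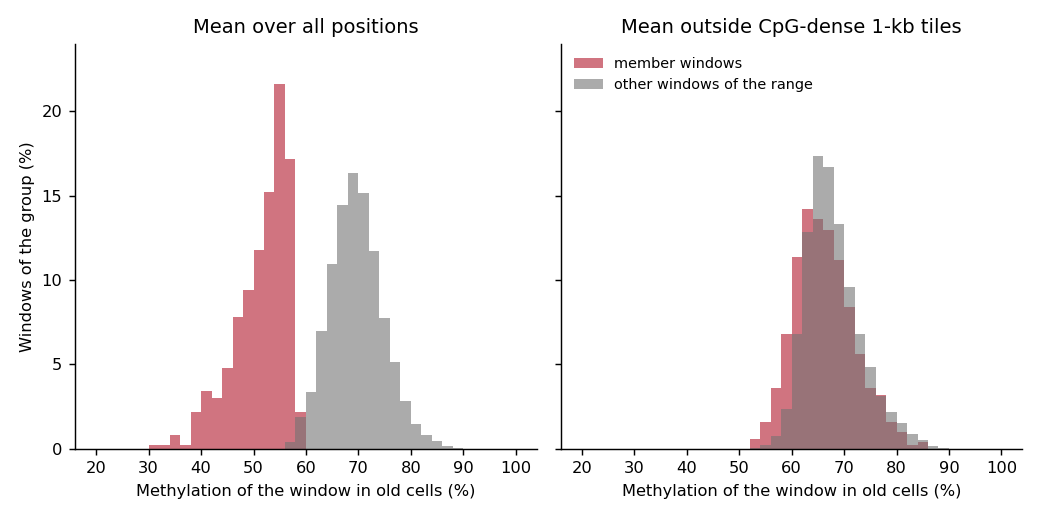
Share of windows (vertical axis, percent of the group) by mean methylation in old cells (horizontal axis, percent, bins of 2), for the 500 members in red and the 11701 other windows in grey. Over all positions, at left, the groups average 51.5% and 69.7%; outside CpG-dense 1-kb tiles, at right, they average 66.3% and 68.0% and largely overlap.

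The same was seen along the window in bins of 10 kb. The least methylated bin of a member averaged 20.5% in old cells (SD 9.41), against 54.9% in the other windows (SD 9.85). The median bin of a member averaged 66.4% in old cells (SD 6.30), against 69.3% in the other windows (SD 5.51). A bin under 30% was found in 434 members (86.8%), against 388 other windows (3.32%). In 432 members (86.4%) the median bin nevertheless stood above 60%, against 11437 other windows (97.7%). Single positions showed the same split: 26.9% of the positions in members were under 20% in old cells, against 3.25% in the other windows. Of the 117286 low positions in members 93.0% lay in CpG-dense tiles and 70.5% within 2 kb of the end of a protein-coding gene. Of the 279207 low positions in the other windows 56.6% lay in CpG-dense tiles and 34.5% within 2 kb of such an end.

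The CpG-densest tiles carried the contrast. In tiles of 60 or more positions, which held 22.4% of the members' positions, members stood at 7.97% in old cells and 7.90% in young cells. The other windows had only 4.63% of their positions in such tiles, at 68.6% in old cells and 68.2% in young cells. The CpG-densest tiles of the other windows were thus mostly methylated, unlike those of the members. In tiles of 1 to 4 positions members stood at 63.8% in old cells and 63.1% in young cells, close to the 64.4% and 63.8% of the other windows in old and young cells. In tiles of 10 to 19 positions members stood at 67.6% in old cells, against 70.2% in the other windows.

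**Figure D2:**
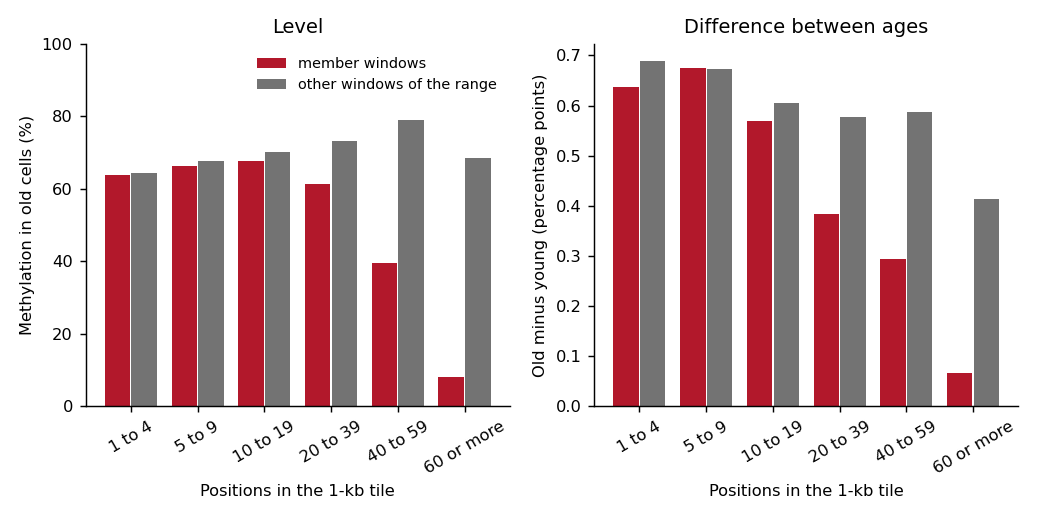
Methylation in old cells (left, percent) and old minus young difference (right, percentage points) by the number of positions in a 1-kb tile, for members in red and other windows in grey; bars are means over positions, with no replicate error. Members fall to 7.97% in tiles of 60 or more positions, where the other windows stand at 68.6%, and the difference in members falls to 0.0654 points there.

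The arrangement can be followed in single members. In the Lrp11 window (chr10:7500000-7599999) only 26 of the 100 tiles hold any position, and 6 CpG-dense tiles hold 403 of its 607 positions. Its other tiles had a median of 64.3% in old cells. In the Slitrk5 window (chr14:111600000-111699999) 9 CpG-dense tiles hold 614 of 952 positions, and the other tiles had a median of 74.8% in old cells. The window with the starts of Gabra4 and Gabrb1, neighbouring genes of GABA-A receptor subunits (chr5:71600000-71699999), has 5 CpG-dense tiles with 220 of 833 positions and a median of 66.7% in its other tiles in old cells. The window of the miRNA genes Mir344d-1 and Mir344d-2 (chr7:61600000-61699999) has no CpG-dense tile among 75 and a median of 51.3% in old cells, so it was low along most of its length. The Lrp11 window also shows a limit of the rule, since a window with few listed tiles weights a start more heavily. Fewer than 50 tiles with a position were found in 12 members (2.40%) and 67 other windows (0.573%).

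**Figure D3:**
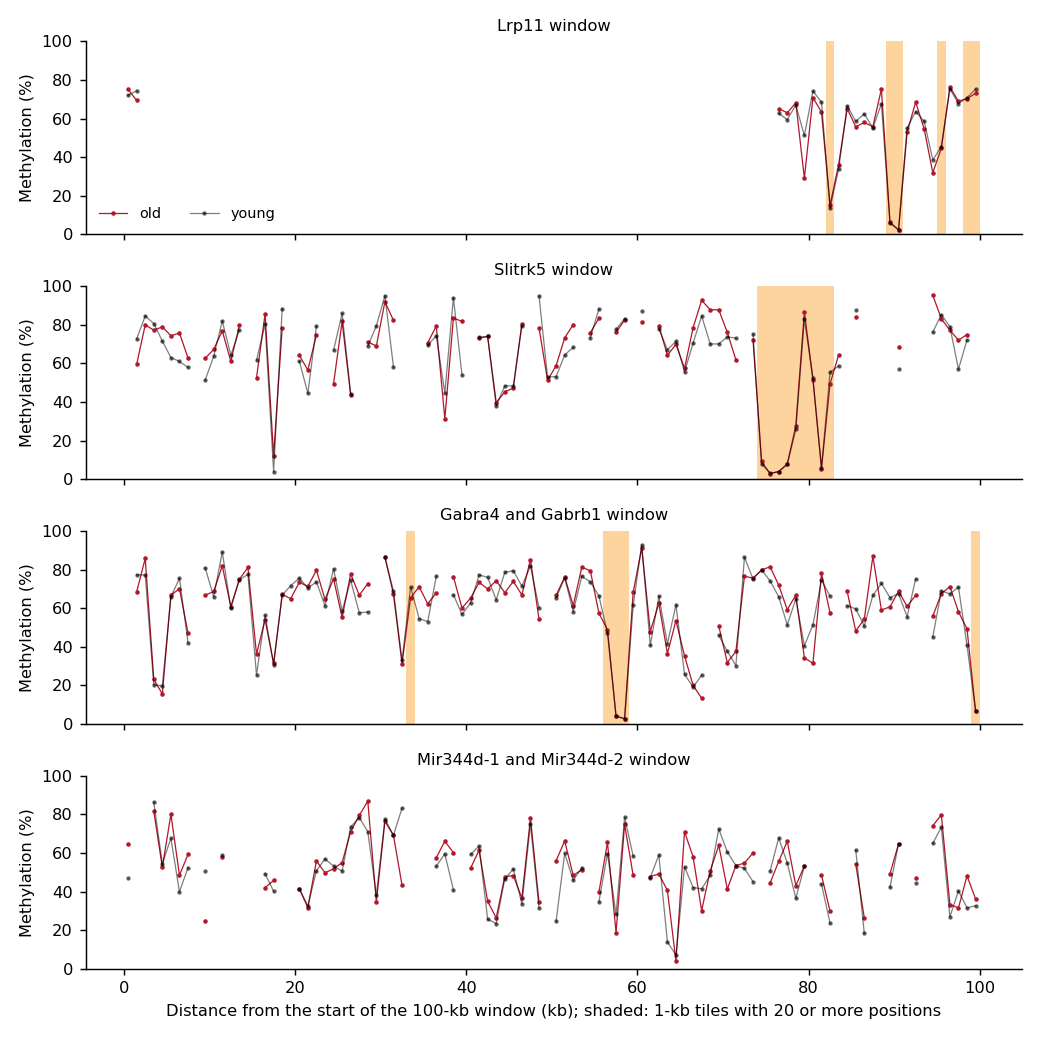
Methylation (percent) of each 1-kb tile along 4 member windows (horizontal axis, kb from the window's start) in old cells in red and young cells in grey, with CpG-dense tiles shaded and gaps where no position is listed. In the Lrp11, Slitrk5 and Gabra4 and Gabrb1 windows the deepest dips over many positions sit in the shaded tiles, while the Mir344d-1 and Mir344d-2 window has none and its tiles have a median of 51.3% in old cells.

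Gene content differed from that of the other windows. A protein-coding gene crossed all but 37 members (7.40%), whereas 6595 other windows (56.4%) had none. No end of a protein-coding gene lay in 65 members (13.0%), against 8587 other windows (73.4%). An annotated protein-coding start lay in 345 members (69.0%), against 2075 other windows (17.7%). Most members were simple in content: exactly 1 protein-coding gene crossed 318 of them (63.6%), against 3726 other windows (31.8%). In all, 663 protein-coding genes crossed a member and 251 lay wholly inside members. Since members hold more positions (median 907, against 704 in the other windows), the count of positions moves with this contrast; its part in it was not tested.

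Most starts in members, but not all, were CpG-rich: 343 of 536 (64.0%) held 10 or more CpGs in 300 bases. That share was 16.2% in the other windows and 67.9% in the rest of chromosomes 1 to 19. The 536 annotated protein-coding starts in members, of 455 genes, had a median of 15 CpGs in 300 bases. The 3837 starts in the other windows had a median of 2, and the 15712 starts in the rest of chromosomes 1 to 19 had a median of 17. By the median, the starts in members thus resembled those of the CpG-rich remainder of the genome and not those of their own CpG-poor range. Since each position has equal weight, the choice by a low window mean favours windows with unmethylated CpG-dense stretches. The CpG content of these starts is therefore a description. The letters GGGCGG, the GC box read on either strand, occurred in 50.9% of starts in members, 14.7% of starts in the other windows and 47.0% of all starts. The letters TATAAA, the TATA box read on either strand, occurred in 9.33% of starts in members, 29.3% of starts in the other windows and 12.7% of all starts. These are matches of letters in a window of 300 bases and not mapped binding sites.

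Methylation at the starts in members was low at both ages. Among the 480 with at least 10 positions within 1000 bp, the median was 5.47% in old cells and 5.48% in young cells, and 408 (85.0%) were under 20% in old cells. The median start of the other windows stood at 59.2% in old cells and 58.6% in young cells, with 26.6% under 20% in old cells. Outside the range the median start stood at 8.45% in old cells and 8.52% in young cells. The members' starts were chosen through the young level of their windows, so their low level is a description. Starts of long non-coding RNAs in members had a median of 19.5% in old cells and 19.1% in young cells over 175 starts, with 50.3% under 20% in old cells, against 6.68% in the other windows.

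**Figure D4:**
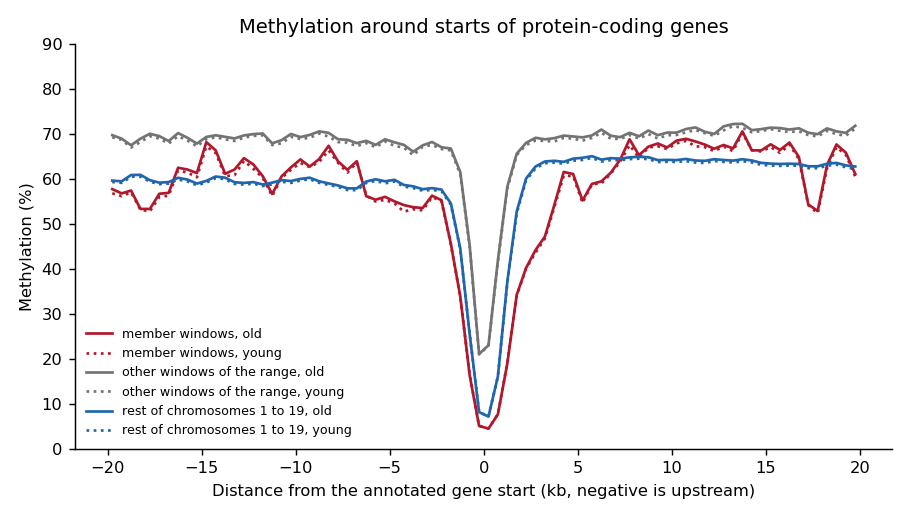
Methylation (percent) in 500-bp steps from 20 kb upstream to 20 kb downstream of annotated protein-coding starts, for members in red, other windows of the range in grey and the rest of chromosomes 1 to 19 in blue, with old cells as solid and young cells as dotted lines. In the 500 bp after the start members reach 4.49% in old cells, the other windows 23.0% and the rest of the chromosomes 7.16%.

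Members held the ends of long genes and, by the place of gene ends, a large share of some neuronal gene lists. A gene end with at least 10 positions that was the less methylated end of its gene lay in members for 537 genes, of which 410 (76.4%) were under 20% in old cells. Where that end lay in another window of the range the share was 22.9% (772 of 3378), and outside the range 68.5% (10736 of 15677). The median length of the 571 genes with that end in a member was 64997 bp, against 7853 bp for genes with it in another window of the range and 19080 bp for genes with it outside the range. Of the 5277 protein-coding genes with an end in the range, 643 (12.2%) had an end in a member. Gene lists were read against that share, as counts without a test. The synaptic adhesion, glutamate receptor, GABA-A receptor and potassium channel lists together gave 62 of the 643 genes (9.64%). The lists were chosen with earlier results of these data known, and placement by ends was adopted after seeing the data. Their shares are therefore a description and do not test a neuronal trait of the members. The lists' shares also depend on how a gene is placed. By its midpoint, 4 of 53 synaptic adhesion genes in the range lie in a member (7.55%), 0 of 12 glutamate receptor genes, 3 of 11 GABA-A receptor genes (27.3%) and 2 of 20 potassium channel genes, against 353 of all 5044 protein-coding genes (6.998%).

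Genes of the synaptic adhesion list had an end in a member in 37 of 62 cases (59.7%). The list is named for proteins that hold neurons together or steer their processes. It also holds genes of other functions, such as Macrod2, Galnt13, Galntl6, Sgcz and Nkain2, which are among the 37. All 30 starts of the list's genes in members were under 20% in old cells, with a median of 5.25% in old cells and 5.45% in young cells. Members were chosen for low methylation, and 85.0% of all measured protein-coding starts in them were under 20%, with a median of 5.47% in old cells. The list's 28 measured starts in other windows had a median of 20.3% in old cells and 20.6% in young cells, where all starts had 59.2% and 58.6%. Negr1, an adhesion protein of the immunoglobulin family, stood at 2.42% in old cells and 2.50% in young cells at its less methylated end and at 67.8% and 67.3% in old and young cells over its whole span. Cadm2, another adhesion protein of that family, stood at 3.06% in old cells and 2.86% in young cells at that end, and at 68.4% and 66.9% over its span. Csmd1, a large membrane protein with complement-regulating domains, stood at 3.19% in old cells and 3.30% in young cells at that end, and at 64.4% and 63.5% over its span. In all 3 a nearly unmethylated end thus stood on a long, methylated gene body. Crossing 3 members, Gm32966 crossed the most, and 29 genes were tied at 2. The longest of those ties were the receptor phosphatase Ptprd, the neurexin-like Cntnap2, the synaptic scaffold Dlg2 and the netrin-G ligand Lrrc4c.

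Receptors and channels of nerve cells had a like share. Glutamate receptor genes, for the main excitatory transmitter, had an end in a member in 9 of 14 cases (64.3%). Grm7, a metabotropic receptor, stood at 4.05% in old cells and 4.37% in young cells at its less methylated end, whereas Gria2, a subunit of the AMPA receptor, stood at 56.5% in old cells and 51.5% in young cells. GABA-A receptor genes did so in 6 of 11 cases (54.5%). Gabra4 stood at 2.86% in old cells and 2.75% in young cells and Gabrb1 at 3.64% in old cells and 3.79% in young cells, while Gabrb2 stood higher, at 23.7% in old cells and 26.2% in young cells. Potassium channel genes had an end in a member in 10 of 22 cases (45.5%). All 12 of their starts in members were under 20% in old cells, as were 85.0% of all measured protein-coding starts in members. Cadherin and protocadherin genes gave 19 of 34 (55.9%), but 14 of the 19 are overlapping Pcdha genes that share 1 end, so this share counts 1 place many times.

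Families that are common in CpG-poor sequence were rare in members. Odorant receptor genes had an end in a member in 11 of 987 cases (1.11%) and vomeronasal receptor genes in 8 of 311 (2.57%). None of 59 cytochrome P450, 44 defensin, 43 serpin or 27 taste receptor genes with an end in the range had one in a member. Of the 11 odorant receptor genes, 10 lie side by side on chromosome 17. There Olfr94 stood at 4.81% in old cells and 4.64% in young cells over 170 positions of its span, and Olfr95 at 14.5% in old cells and 13.3% in young cells over 82 positions. The other 9 stood between 48.7% and 69.8% in old cells, most of them on fewer than 20 positions. Zinc finger genes of the Zfp list had an end in a member in 15 of 122 cases (12.3%), close to the 12.2% of all genes, and keratin-associated genes in 3 of 37 (8.11%).

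**Figure D5:**
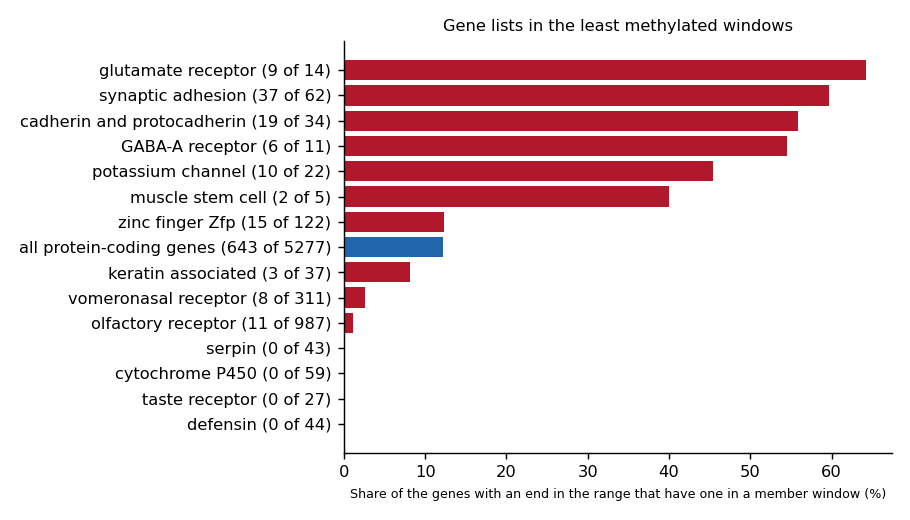
Share (percent) of the protein-coding genes with an end in a window of the CpG-poor range that have an end in a member, for lists with at least 5 such genes in red and for all genes in blue; counts stand beside each name. By gene ends, a placement adopted after seeing the data, the neuronal lists lie between 45.5% and 64.3%. All genes lie at 12.2% and odorant receptors at 1.11%. By gene midpoint, as first fixed and not plotted, synaptic adhesion genes lie at 7.55% and glutamate receptor genes at 0%. Potassium channel genes then lie at 10% and GABA-A receptor genes at 27.3%, against 6.998% of all genes. The shares are therefore a description and do not test a neuronal trait of the members.

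Genes of the sorted cell itself were few in the range. Of 36 muscle stem cell genes 5 had an end in the range and 2 in a member: Cd34, a surface sialomucin of stem and progenitor cells, and Itgb1, an integrin subunit that binds the matrix around the fibre. Cd34 stood at 12.3% in old cells and 12.6% in young cells at its less methylated end, and Itgb1 at 2.99% in old cells and 3.34% in young cells. The starts of muscle stem cell genes outside the range were under 20% in old cells in 25 of 26 cases, but so were 52 of 62 starts of transcription factors of other lineages, so these levels do not check the labelled cell type. Among transcription factors of other lineages, Isl1, which acts in motor neuron and heart development, and Zfhx4 had an end in a member. Isl1 stood at 4.88% in old cells and 4.29% in young cells at that end, and Zfhx4 at 6.61% in old cells and 6.57% in young cells. No ribosomal protein, sarcomere or housekeeping gene of the lists had an end in a member, where the range held 4, 1 and 0 of them.

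Genes wholly inside members covered the whole span of levels. Among the 219 with at least 20 positions the lowest in old cells were Tusc1, at 1.90% in old cells and 1.88% in young cells, and LOC115488350, at 2.33% in old cells and 2.35% in young cells. Gm30698 (2.48% in old cells), Fam181b (2.66%) and Rrs1, a ribosome assembly factor (2.98%), came next. These 5 genes are at most 2048 bp long, so their whole span lies inside the unmethylated stretch. The highest were Gm2244, at 83.1% in old cells and 83.2% in young cells, Lamtor3-ps, at 77.7% in old cells and 69.9% in young cells, and Cntf, a neurotrophic factor, at 77.6% in old cells and 79.4% in young cells. Gm29808 (77.1% in old cells) and Gm9295 (75.9%) completed the 5.

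Of 1136 miRNA genes 21 had their midpoint in a member, 131 in another window of the range and 984 outside it. Of the 15 in members with at least 10 positions within 1000 bp, 5 were under 20% in old cells. Levels of miRNA genes elsewhere were not computed, so no background share stands beside the 5. The mature sequences of 3 of the 5 in the RefSeq table of build GRCm38.p6 are shown with the seed, bases 2 to 8, in capitals, since these are the miRNA genes that share the unmethylated stretches.
mmu-miR-137-5p: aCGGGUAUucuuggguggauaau
mmu-miR-137-3p: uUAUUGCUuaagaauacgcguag
mmu-miR-1895: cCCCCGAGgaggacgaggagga
mmu-miR-1903: cCUUCUUCuucuuccugagaca
No seed is shared among them. Mir137, a miRNA gene known from neurons, stood at 4.65% in old cells and 3.73% in young cells over 116 positions. Mir1895 stood at 4.84% in old cells and 5.05% in young cells, and Mir1903 at 3.92% in old cells and 4.70% in young cells. The other 2 were Mir124a-2, of the most abundant miRNA family of neurons, at 8.80% in old cells and 9.98% in young cells, and Gm51272, which overlaps it. Mir30a stood just above the limit, at 20.6% in old cells and 23.9% in young cells.

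Members were mostly isolated. Another member lay next to 64 of the 500 (12.8%), and a member lay next to 751 of the 11701 other windows (6.42%). The members formed 464 runs, of which 436 were single windows, 23 were pairs, 3 were runs of 3, and 1 each were runs of 4 and 5. For the flanks, neighbours that were members were left out and windows outside the range were kept. The 926 windows 100 kb to either side of a member averaged 67.6% in old cells and 67.0% in young cells. The windows beside the other windows of the range averaged 68.8% in old cells and 68.1% in young cells. Neighbours that were not members thus stood near the level of the range, which leaving out the low neighbours partly fixes. By chromosome, members made up between 2.93% of the windows of the range (chromosome 4) and 6.60% (chromosome 14).

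Among the 5 longest runs, 3 lay at the start of chromosome 14, in clusters of repeated predicted genes. They were chr14:5800000-6299999 with 5 windows at 49.8% in old cells and 49.6% in young cells, chr14:3800000-4199999 with 4 windows at 46.9% in old cells and 46.5% in young cells, and chr14:4600000-4899999 with 3 windows at 45.1% in old cells and 44.3% in young cells. Reads of near-identical copies can be placed at the wrong copy, so levels of single genes there are uncertain. Without the 24 members of the first 8 Mb of chromosome 14, 48 of 476 members (10.1%) lay next to another. The other 2 runs held named genes. One, chr2:22600000-22899999, stood at 50.9% in old cells and 50.2% in young cells and holds Gad2, which makes GABA from glutamate, Myo3a, Apbb1ip and Pdss1. The second, chr3:80800000-81099999, stood at 56.1% in old cells and 55.4% in young cells and holds Gria2, Glrb, which encodes a glycine receptor subunit, Gm29808 and the growth factor gene Pdgfc.

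In old cells the members kept their place. Of the 500, 481 (96.2%) were also among the 500 windows of the range lowest in old cells, which come from other animals than the young cells used to choose them. The level in old cells ranged between 31.4% and 59.7% over members, with a median of 53.0%, and between 55.8% and 89.4% over the other windows. The 5 lowest members differed little between the ages, with the window of Xkr4 as the exception. The Lrp11 window stood at 31.4% in old cells and 31.5% in young cells. The window of Xkr4, an XK-related membrane protein (chr1:3600000-3699999), stood at 34.3% in old cells and 33.1% in young cells. The window of Lin28b, an RNA-binding protein that blocks let-7 maturation (chr10:45400000-45499999), stood at 33.6% in old cells and 33.5% in young cells. The window of 4930555G01Rik on chromosome 14 stood at 35.6% in old cells and 35.5% in young cells, and the Slitrk5 window at 36.0% in old cells and 35.8% in young cells.

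Membership ended at no visible step. The last 3 windows inside had 56.6%, 58.0% and 57.1% in old cells, with 56.93%, 56.94% and 56.96% in young cells, and 2 of them lie in Dlg2 and at Cobl, an actin nucleator. The first 3 outside had 56.9%, 58.2% and 58.6% in old cells, with 56.98%, 56.99% and 57.0% in young cells.

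Old cells were slightly more methylated than young cells in the members, by 0.484 points (SD 0.631 over 500 windows), and in the other windows by 0.648 points (SD 0.730 over 11701 windows). The level was higher in old cells in 402 members (80.4%) and in 9612 other windows (82.1%). On each of the 19 chromosomes the members' mean difference was above 0, between 0.211 and 0.817 points (SD 0.140), and on 18 it was below that of the other windows; on chromosome 17 it was above. Choosing members by a low young level raises their old minus young difference by construction, and when windows were ranked on old cells it was 0.402 points, against 0.651 in the other windows. Ranked without CpG-dense tiles, it was 0.705 points in the 500 lowest windows, against 0.567 in the others. That ranking also changed the pool of windows, to 23402, and shares 47 windows with the members. These are differences between 2 group levels whose error over animals is not known.

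The difference between ages was small at the nearly unmethylated CpG-dense stretches. In tiles of 60 or more positions old minus young was 0.0654 points in members, and within 1000 bp of a gene end 0.0128 points, where members stood at 10.96% in old cells and 10.95% in young cells. In tiles of 5 to 9 positions it was 0.675 points in members and 0.672 in the other windows. Outside CpG-dense tiles the members differed by 0.638 points and the other windows by 0.667 points. Positions were not grouped by level, so the part of the level in these differences was not tested. Members' positions over 100000 bp from a gene end stood at 52.9% in old cells and 52.2% in young cells, with a difference of 0.736 points. In the other windows such positions stood at 70.2% in old cells and 69.5% in young cells, with 0.674 points. Members' positions between 20 kb and 100 kb from a gene end stood at 66.5% in old cells and 66.0% in young cells, with 0.568 points. Those of the other windows stood at 71.4% in old cells and 70.8% in young cells, with 0.563 points. In the other windows tiles of 60 or more positions, at 68.6% in old cells, differed by 0.413 points, and tiles of 1 to 4 positions, at 64.4% in old cells, by 0.688 points. Of the 480 measured protein-coding starts in members, 197 (41.0%) were higher in old cells, against 53.8% of those in the other windows, 44.5% of those outside the range and 45.8% of all starts.

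Single windows and genes spread more widely. The largest differences were in the window of Vmn2r100 and Vmn2r101 (59.7% in old cells, 56.7% in young cells), at chr6:68400000-68499999 among immunoglobulin kappa variable segments (58.7% and 55.9% in old and young cells), and at chr12:114400000-114499999 among heavy chain variable segments (59.6% and 56.9%). The windows chr17:38700000-38799999, with no protein-coding gene (56.8% and 54.1%), and chr6:45300000-45399999 inside Cntnap2 (59.5% and 56.9%) followed. Each of these 5 had at most 53 positions in CpG-dense tiles. The most negative were chr14:6000000-6099999, in the clusters of predicted genes (47.2% in old cells and 48.7% in young cells), and the cystatin cluster of Cst3, an inhibitor of cysteine proteases, with Cst8, Cst9 and Cst13 (49.9% and 51.2%). The windows of Kif16b, an endosomal kinesin (53.7% and 55.0%), of Gm5798 and Gm7945 (55.7% and 56.8%) and of Gabrb1 on chr5:71700000-71799999 (52.3% and 53.3%) came next. Among genes wholly inside members the largest were Lamtor3-ps at 7.80 points, Gm5796 at 5.84, the sperm gene Cypt4 at 4.74, the formyl peptide receptor gene Fpr2 at 4.38 and Gm29808 at 4.08 points. The most negative were Gm7945 at -5.01 points, Gm3127 at -4.92, Gm7876 at -4.53, Gm9602 at -3.90 and Cst9 at -3.78 points. All 10 rest on 21 to 54 positions, and 6 of them lie on chromosome 14, most in those clusters of repeated genes.

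Positions past the authors' FDR of 0.05 made up 0.455% of the positions in members (1980 of 435420), against 0.528% in the other windows (45393 of 8601182). Over the range the share was 0.524%, and over all positions of chromosomes 1 to 19 it was 0.233%. In members 1115 (0.256%) were higher in old cells, where the other windows had 0.296%, the range as a whole 0.294% and all positions 0.13%. A further 865 (0.199%) were lower in old cells, where the other windows had 0.231%, the range 0.23% and all positions 0.103%. The members' share was thus near the background of the range. By density, 41 of the 1980 lay in CpG-dense tiles (0.0233% of the positions there) and 1939 outside them (0.748%); the other windows had 0.0331% and 0.726%. The called positions in members differed by 20.6 points on average when higher in old cells and by -20.6 points when lower.

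A small group of members held few CpG-dense stretches. In 36 members less than 20% of the positions were in CpG-dense tiles, and these averaged 56.4% in old cells and 55.3% in young cells, or 1.09 points higher in old cells (SD 1.01). Only 8 of the 36 had no position in a CpG-dense tile, and 11 stood below 56.96% in old cells outside such tiles, where the 36 averaged 58.8% in old cells and 57.6% in young cells. Several of them were thus low through a few dense tiles. The other 464 averaged 51.1% in old cells and 50.7% in young cells, 0.437 points higher in old cells (SD 0.568). Among the 36 windows 32 were higher in old cells, against 370 of the 464 and 9612 of the 11701 other windows (82.1%). No gene end lay in 24 of the 36, against 41 of the 464 and 8587 other windows (73.4%). None of the 36 lay next to another member, against 64 of the 464 and 751 other windows. Most of the 36 lie near the limit of membership. How much of their larger difference comes with the choice by the young level was not tested. By place, 5 of the 36 lie between chr12:113700000-113799999 and chr12:115300000-115399999 among immunoglobulin heavy chain variable segments, and 3 between chr7:60800000-60899999 and chr7:61600000-61699999. The remainder include windows at the ends or inside of Lrrc4c, Cntnap5a, Cntnap5b, Dlg2, Cntnap2 and Nrg3, a neuregulin gene, and in the epidermal immune genes Skint5 and Skint6. Of 394 variable segments of antigen receptor genes, 29 had their midpoint in a member, 317 in another window of the range and 48 outside it.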

How the data were processed

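Libraries of muscle stem cells from 4 old and 4 young mice, 1 per animal, take their group from the labelled age. Per the labels' protocols 150 ng of DNA and 14 PCR cycles went into each library, read as pairs of 101 bp. The submitters' processing notes name Bismark, Trim Galore and edgeR, and the builds mm10 and GRCm38 (versions and roles: not given in the sources used here). Levels come, as deposited, as 1 table. They are, per the file headers, a fraction (mu) per age group, smoothed along the chromosome to judge by equal neighbours. The authors also deposited a dispersion (phi) per age, taken here as a score because no source used here defines it. The authors' p-value and FDR per position were used as deposited.

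From these, levels were averaged in percent with equal weight per position, over 32026463 of 33108039 positions, in 100-kb windows and in 1-kb tiles. Genes, starts and sequences came from RefSeq tables of GRCm38.p6, and coordinates are those of the deposited table or of RefSeq. Gene ends cover 1000 bp on each side. The less methylated end of a gene is chosen on the mean of both ages with at least 10 positions, and a gene span needs 20 positions to be ranked. Computation used Python 3.11.15, numpy 2.4.6, pandas 2.3.3 and scipy 1.17.1, and was checked on simulated levels. No test was run, since the table has no value per animal. Smoothing flattens narrow differences and makes neighbouring positions dependent.

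The members and lists were chosen with earlier results of these data known. Named windows are the 5 lowest in young cells, the 3 on each side of the limit, the 5 longest runs and the 5 largest and 5 smallest differences. Named genes are the 5 crossing most members (ties in order of length), the 5 extremes of level and difference among genes wholly inside members, genes of the longest runs, and muscle stem cell and lineage factor genes with an end in a member. Lists were fixed by gene midpoint; since long genes have their midpoint far from their start, ends were used in their place after seeing the data. Both are given. Other genes named as examples, the printed sequences and the plotted windows were chosen after their values were seen. Alternatives changed the age used to rank, the number of members, the window start, the positions used and the summary.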

Additional observations from a re-analysis of the deposited data

How the results depend on the processing

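The summary values recomputed under each alternative were the old minus young difference (0.484 points as reported), the share of members higher in old cells (80.4%), the share also among the lowest windows in old cells (96.2%), the share without a protein-coding gene (7.40%) and the share next to another member (12.8%). The difference stayed above 0 under every alternative, and a change of direction was not defined for the shares. Of the recomputed values 34 stayed within their tolerance and 23 moved. The tolerance is the SD over 19 chromosomes for the difference and the exact 95% binomial interval for shares. That interval takes windows as independent, although they share the same animals, so it is only a yardstick. Ranked on the mean of both ages, 98.4% were also lowest in old cells. With 250 members 4.40% had no gene and 8.4% a member as neighbour; with 1000 members 92.8% were also lowest in old cells, 17.9% had no gene and 22.8% a neighbour. In windows shifted by 50 kb 75.8% were higher in old cells and 4.80% had no gene. Without positions at the most common dispersion 5.20% had no gene.

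The alternatives that leave out or down-weight CpG-dense starts moved most values. Ranked without CpG-dense tiles, the difference was 0.705 points, 81.2% were also lowest in old cells, 32.6% had no gene, against 35.3% of the other windows, and 36.4% a neighbour; the pool was then 23402 windows, so the contrast in gene content of the members (7.40% against 56.4%) is not seen there. Ranked without positions within 2 kb of gene ends, these were 0.727 points, 87.8%, 36.6% (against 55.1% of the other windows) and 25.6%. Ranked on the median position, they were 1.22 points, 76.4%, 31.4% (against 55.3% of the other windows) and 20.8%, with 73.2% higher in old cells. A smaller contrast in gene content than reported thus remained under the gene-end and median rankings. Under these 3 rankings the members' difference was above that of the other windows (0.567, 0.648 and 0.753 points), whereas it was below as reported. The cause was not tested. For the same members outside CpG-dense tiles, an alternative chosen after seeing the data, it was 0.638 points; leaving out the first 8 Mb of chromosome 14, also chosen so, moved no value.

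No paired analysis was possible because the table holds 1 level per age group; leaving out each animal in turn was not run for the same reason. The depth per position is unknown, so it cannot be said which levels are precise, and differences of under 1 point cannot be set against the spread between animals.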

Other observations

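Ranking by sequence outside CpG-dense tiles gave another picture of low methylation. Among 23402 eligible windows on chromosomes 1 to 19, the 500 lowest in young cells by that measure averaged 57.5% in old cells and 56.8% in young cells. They formed 392 runs, the longest of 9 windows, and 47 of them are members as described above. The members formed 464 runs, the longest of 5 windows, among the 12201 windows of the range.

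Positions past the authors' FDR were concentrated at 1 value of the deposited dispersion. In members 91.9% of the called positions carried the most common dispersion of either age (0.0434 in old cells, 0.0438 in young cells), against 24.9% of all their positions. In the other windows these shares were 91.5% and 28.3%. No source used here says what this dispersion value stands for.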
